A study of Mus musculus with 3 samples.

Results

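NSUN6 is an RNA methyltransferase that places 5-methylcytosine (m5C) near the 3′ end of certain transfer RNAs and, in messenger RNA, at the first cytosine of the motif CTCCA, often in the loop of a hairpin. A cytosine in that place has a fixed spacing of neighbouring cytosines: others at +2 and +3 (counted downstream) and none at +1 and +4. The cytosines with this spacing were described in bisulfite-converted mRNA of mouse embryonic stem cells. Bisulfite reads unmodified cytosine as thymine, so the unconverted share of the reads over a cytosine holds m5C, 5-hydroxymethylcytosine and cytosine that the reagent missed, without telling them apart.

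The data came from 3 samples of 1 group, J1 embryonic stem cells of the genotype Tet1-/-,Tet2-/-,Tet3-/-, which lack the enzymes that oxidise 5-methylcytosine. The cells had been grown on embryonic fibroblast feeders with serum and ESGRO, then separated from the feeders by repeated plating, and their polyadenylated RNA was fragmented, treated with DNase and converted. No wild-type cells were analysed here, so every comparison is between cytosines within the same libraries. The labels do not say whether the samples were separate cultures, and the spread between them may be technical.

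The tables listed 171684 cytosines with the spacing, counting a neighbour as present if any of the 3 tables listed it. Of these, 62979 (36.7%) had a coverage of at least 10 reads in all 3 libraries and are the members described here. They made up 3.84% of the 1639820 cytosines with that coverage and lay in 7375 transcripts of 7219 named genes; 180 members had no gene symbol. Spacing is a necessary condition for CTCCA and not a sufficient one, since any of 3 bases can stand at +1 and at +4. The median coverage of the members was 33, 29 and 29 reads in replicates 1, 2 and 3, against 33, 30 and 29 for the 1576841 remaining cytosines. At those member coverages a count of 0 allows a share of up to 9.09%, 10.3% and 10.3% (3 counts of the total), and at 10 reads it allows 30%. These limits and the intervals below cover counting error only.

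Coverage summed over all cytosines was 139884444 to 151362866 per library. All 10 stem cell markers were listed, and together they took 0.502% to 0.530% of the coverage, against 0.0595% to 0.0799% for 9 of 10 fibroblast markers. Nanog and Esrrb were listed, with no cytosine at 10 reads in every library. The part of feeder RNA in the results was not tested. Tet2 held 1 member, Tet1 and Tet3 none, and reads over these genes do not check the knockout because the labels do not say which exons were deleted. The Nsun6 transcript itself was listed at 3 cytosines, with a mean of 1.33 reads per library, and none of them could be tested.

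The bases around a subset of members could be read. RefSeq's promoter table of build GRCm38.p6 holds 250 bases before and 50 bases after each gene start. The transcripts placed on it numbered 3191. Of these, 2877 began at the table's own gene start and the rest, Fau and Rplp2 among them, at another. Each was placed because, from the first to the last listed cytosine of the overlap, every listed position fell on a C and every C was listed. This gave the letters of 648 members (1.03%) in 473 genes, at a median transcript position of 34. The placement used the cytosine pattern and not the levels. The motif CTCCA, searched on the RNA strand, stood at 39 of the 648 (6.02%). The other members in the subset were mostly CGCCG (227), CTCCG (94), CGCCA (88) and CGCCT (72). Across the table, 7.48% of entries held CTCCA in those 50 bases, 10.5% held its reverse complement TGGAG, and 38.7% held the spacing.

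The sites with CTCCA that had the highest share or the most reads, and the placed members called by the test below, are shown because they set the actual motif beside its spacing. All lie within the transcript near its start; whether a site is in untranslated or coding sequence is not used here. The 5 bases from the site to +4 are in capitals, and positions are counted from 1 at the 5′ end of the transcript.
Fau position 75, chr19:6057952-6057976, plus strand: tctttcttgaCTCCAtcttcgcggt
Isca2 position 40, chr12:84773299-84773319, plus strand: agatggcggcCTCCAgggcct
Apex1 position 40, chr14:50924978-50924998, plus strand: aacaggcagaCTCCAttcttt
Wdr89 position 42, chr12:75669488-75669506, minus strand: ttttctccagCTCCAgtgt
Psmb3 position 42, chr11:97703465-97703483, plus strand: cgggcttccaCTCCAgcgc
Ilf2 position 15, chr3:90476205-90476229, plus strand: gttgtgtggcCTCCAttgttcagga
Atp5b position 3, chr10:128083307-128083323, plus strand: gtCTCCAcccggattcc
Rplp2 position 19, chr7:141447658-141447682, plus strand: cgccggacgcCGCCGaggtcgcacg
Uqcr10 position 46, chr11:4704295-4704309, minus strand: aacatgtcgtCGCCG
Ppp1r14b position 29, chr19:6975066-6975090, plus strand: agcccgggggCTCCGcatgctgcag
The first 7 sequences hold CTCCA and none of their sites was called. The last 3 were called and hold CGCCG or CTCCG.

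Cytosines with the spacing were almost fully converted, and slightly more so than the remaining cytosines. The unconverted share over their reads was 1.46%, 1.36% and 1.34% in replicates 1, 2 and 3, from 78950 of 5422038, 69178 of 5074337 and 67490 of 5031940 reads. The remaining cytosines stood at 1.53%, 1.45% and 1.41%. The members were lower in 3 of 3 libraries, by a mean of -0.0759 ± 0.0121 percentage points (SD, n = 3; exact sign-flip permutation test, two-sided, p = 0.25, the smallest that 3 libraries allow). The difference is larger than its own spread over the libraries. It was -0.0800 ± 0.0122 against cytosines of the same transcripts. Members whose lowest coverage was exactly 10 reads (3842) had 1.43% ± 0.0479, and cytosines with the spacing just outside the rule, at 9 reads (4304), had 1.45% ± 0.116 (SD, n = 3).

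Most members had a share near or at 0. No unconverted read was seen in any library at 18628 members (29.6%), against 28.6% of the remaining cytosines, and the median of the mean share was 1.19% against 1.24%. Mean shares of 5% or above were found at 1812 members, or 2877 per 100000, against 3183 per 100000 elsewhere. At 10% or above there were 55 members (87.3 per 100000, against 139.7), at 20% or above 3 (4.76, against 5.45), and at 50% or above 1 (1.59, against 0.888). Counts of 3 and 1 are too few to order the members and the rest at the top of the scale.

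**Figure D1:**
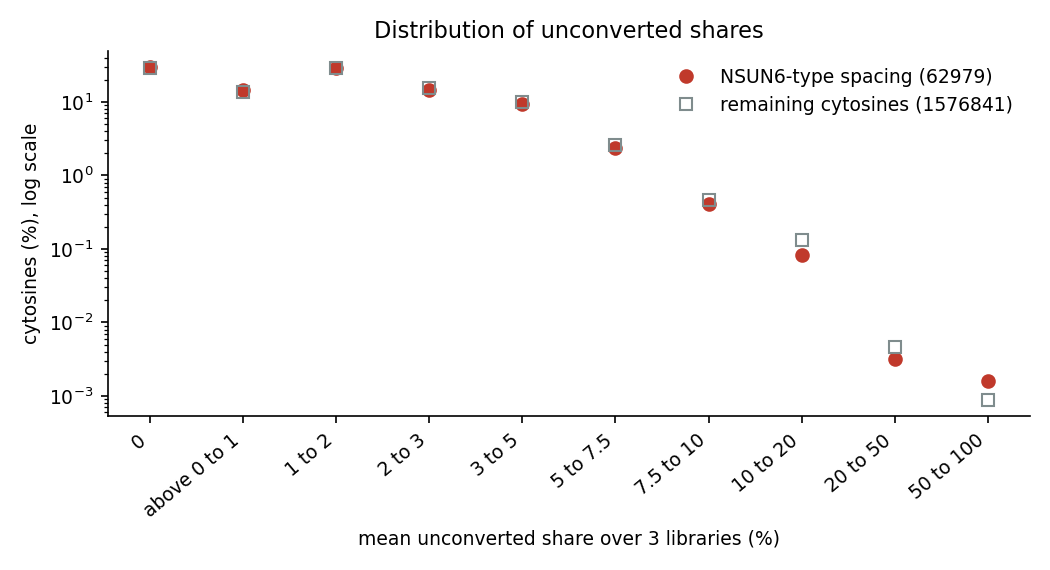
Percentage of cytosines (log scale) in each class of mean unconverted share over 3 libraries, for the 62979 cytosines with NSUN6-type spacing (filled circles) and the 1576841 remaining ones (open squares). The 2 distributions lie close together up to 5%, and the members are the lower at 10% to 20%, where 52 of them lie.

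The pattern of cytosines downstream was compared for all 16 combinations of +1 to +4. The spacing of the members had the second lowest mean share, 1.39% ± 0.0610 (SD, n = 3), and ranked 2, 2 and 3 from the bottom in replicates 1, 2 and 3. Only the pattern with cytosines at +2, +3 and +4 was lower on average, at 1.36% ± 0.0670. The highest was the pattern with no cytosine at +1 to +4, at 1.49% ± 0.0649. Adding a cytosine at +1 to the spacing of the members gave 1.47% ± 0.0470, and leaving out the one at +3 gave 1.40% ± 0.0677. The same 3 patterns had 25.4, 69.7 and 34.7 called cytosines per 100000, by the rule given further on.

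**Figure D2:**
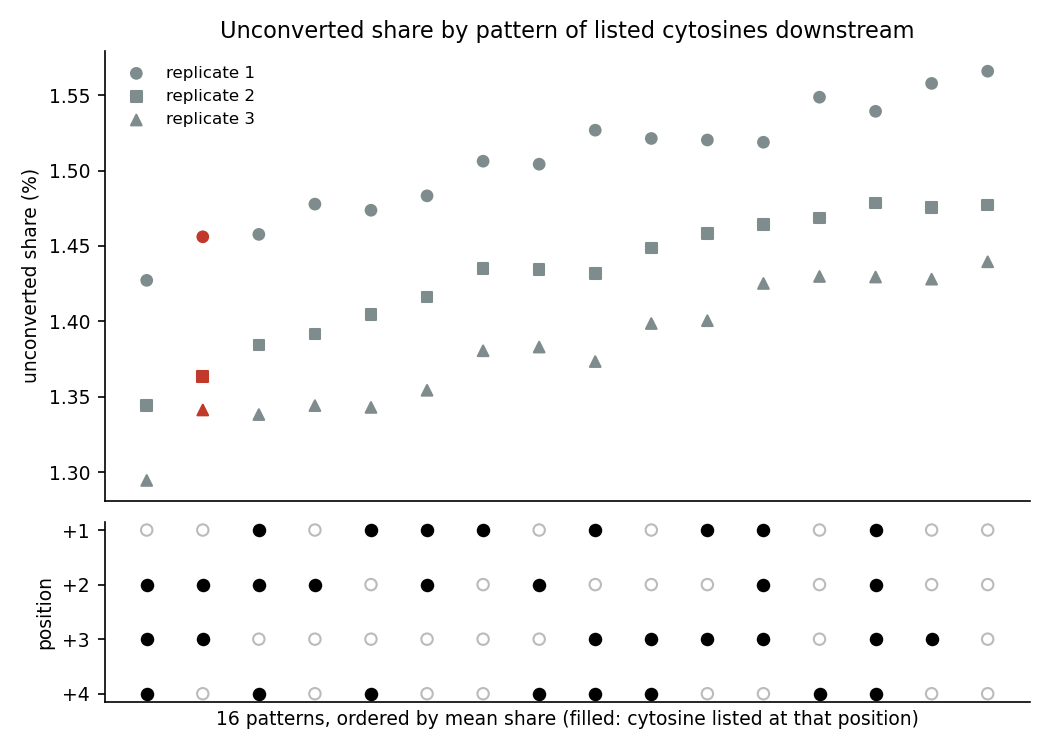
Unconverted share of testable cytosines in percent (upper panel; 1 symbol per replicate) for the 16 patterns of listed cytosines at +1 to +4 (lower panel; filled dots are listed cytosines), ordered by mean share. The NSUN6-type spacing, in red, is the second from the left at 1.46%, 1.36% and 1.34%.

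The number of other listed cytosines within 10 nt had a median of 7 for the members and 5 for the remaining cytosines (means 6.63 and 5.14). The rule itself gives each member 2 of these, so the gap is not a finding. Of the classes compared, which begin at 2 such neighbours, that with 2 to 3 had the highest share in both. There the members were at 1.47% ± 0.0787 and the rest at 1.54% ± 0.0646, and with 8 to 9 the members were at 1.35% ± 0.0706 and the rest at 1.38% ± 0.0636 (SD, n = 3). Within strata of this number, a comparison chosen after seeing the data, the members remained lower in 3 of 3 libraries, by -0.0384 ± 0.0131 percentage points (exact sign-flip test, p = 0.25). The part of local cytosine number in the other comparisons was not tested.

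Cytosines upstream of the site, which the rule did not use, went with lower shares. Members with a listed cytosine 2 bases upstream were at 1.27% ± 0.0531 and those without at 1.42% ± 0.0635, a difference of -0.154 ± 0.0116 percentage points (SD, n = 3; exact sign-flip test, p = 0.25). The differences were -0.105 ± 0.0176 for a cytosine 1 base upstream and -0.118 ± 0.0107 for one 3 bases upstream. Among the remaining cytosines the differences at 2, 1 and 3 bases upstream were -0.155, -0.121 and -0.171. A cytosine 4 bases upstream went with 0.00756 ± 0.00291 in the members and -0.0518 ± 0.00326 in the rest; whether the members differ from the rest in this was not tested.

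The +2 and +3 cytosines beside a member share reads with it and were compared with it in pairs. The reads were not always the same. Among called members the count fell from the site to +2 in Brip1 (590 to 367), Pabpn1 (235 to 148) and Tbc1d13 (160 to 62), while Id2 had 104 and 100. At 61280 members whose +2 cytosine was also testable, the site had 1.38% ± 0.0614 and the +2 cytosine 1.38% ± 0.0652 (SD, n = 3). The site was lower in replicates 1 and 2 and higher in replicate 3, with a mean difference of 0.000412 ± 0.0111 percentage points (exact sign-flip test, p = 1). The site was higher than the +3 cytosine in 3 of 3 libraries at 60527 such pairs, by 0.0243 ± 0.00935 percentage points (exact sign-flip test, p = 0.25). In 4607 of these pairs the +3 cytosine was itself a member; without them, an alternative added after seeing the data, the difference was 0.0235 ± 0.00674 (SD, n = 3). Called cytosines numbered 14 at the site and 12 at +2 in the first set of pairs, and 14 at the site and 19 at +3 in the second.

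By position in the transcript the members had a lower mean share than the rest in each class but the first 50 nt. In the first 50 nt, 1260 members had 1.36% ± 0.0415 and the remaining cytosines 1.34% ± 0.0594, with the members higher in 2 of 3 libraries (exact sign-flip test, p = 0.5). The 648 members placed on the promoter table, which lie mostly in that stretch, were instead lower than 11228 other placed cytosines in 3 of 3 libraries, by -0.114 ± 0.0110 percentage points (SD, n = 3; exact sign-flip test, p = 0.25). From 51 to 200 nt the members had 1.43% ± 0.0745 and the rest 1.52% ± 0.0711 (SD, n = 3). The members were lowest relative to the rest in the next stretch, up to 500 nt, by -0.105 ± 0.0149 percentage points. Beyond 5000 nt the values were 1.34% ± 0.0470 and 1.41% ± 0.0569. More of the members lay near the 5′ end: 2.00% of them, against 1.35% of the rest, were in the first 50 nt, and 13.0%, against 9.05%, from 51 to 200 nt.

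**Figure D3:**
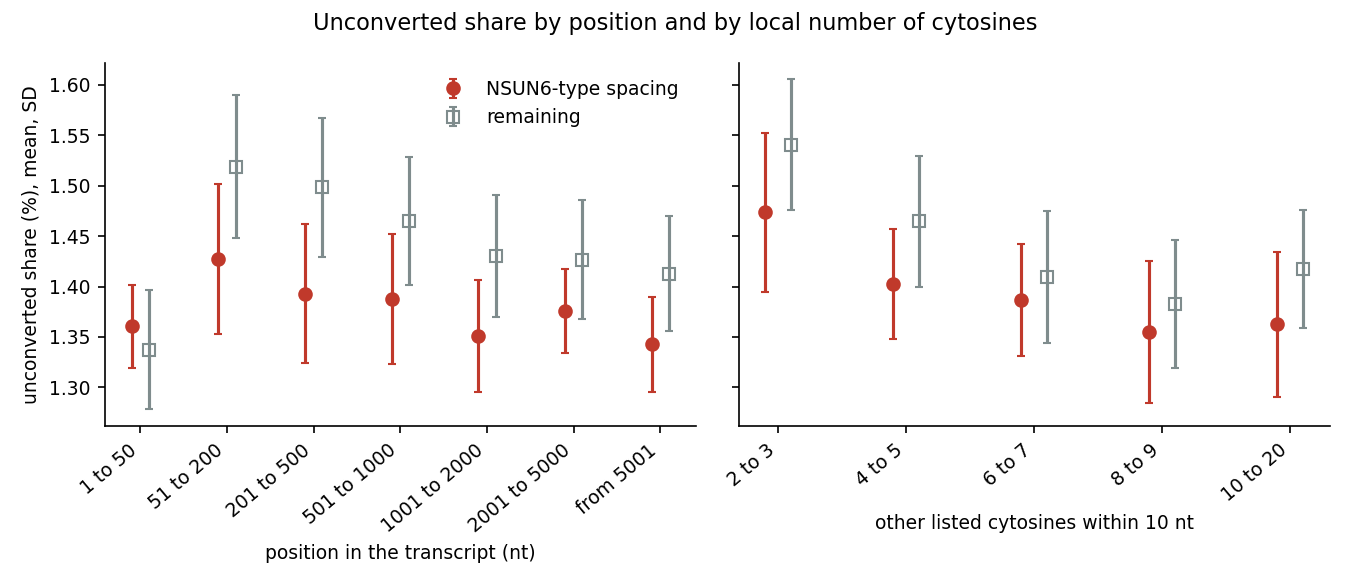
Unconverted share in percent (mean and SD of 3 libraries) by position in the transcript (left) and by the number of other listed cytosines within 10 nt (right), for cytosines with NSUN6-type spacing (filled) and the remaining ones (open). The members lie below the rest on average in each class but the first 50 nt; the widest gap by position, -0.105 percentage points, is between 200 and 500 nt.

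The motif CTCCA itself was then compared with the other letters that give the same spacing. The 39 sites with CTCCA had 1.42%, 1.75% and 1.24% in replicates 1, 2 and 3, from 70 unconverted of 4769 reads, and the 609 placed members with other letters had 1.25%, 1.22% and 1.17%. The mean difference of 0.256 ± 0.240 percentage points was positive in 3 of 3 libraries (SD, n = 3; exact sign-flip test, p = 0.25) and about as large as its spread. Without replicate 2 it was 0.118. It rested on 1 site: without the one in Fau, an alternative added after seeing the data, it was -0.0498 ± 0.344, with 1 library positive and 2 negative (exact sign-flip test, p = 0.75). Without genes with several listed transcripts, of which Fau is one, it was 0.000448 ± 0.358. Against all 11837 other placed cytosines, 39 CTCCA sites differed by 0.139 ± 0.235.

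Fau encodes a ubiquitin-like protein fused to the ribosomal protein S30. Its CTCCA site at position 75 (NM_007990.3) was unconverted in 5 of 102, 5 of 94 and 8 of 115 reads, a mean of 5.73% ± 1.09 (SD, n = 3). This is above the library background in all 3 libraries, with an adjusted p of 0.00341 (combined one-sided exact binomial tests, Benjamini-Hochberg over all testable cytosines), and below the level of 10% that a call required. Fau has 3 listed transcripts, and the labels do not say how reads were divided among them.

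No other CTCCA site passed the test. Isca2, which takes part in iron-sulfur cluster assembly, had 0 of 19, 3 of 30 and 1 of 30 unconverted reads, and Apex1, a DNA repair endonuclease, had 1 of 14, 1 of 20 and 0 of 12. Wdr89 had 0 of 18, 2 of 17 and 0 of 16. These 3 were shown for their high shares, had few reads, and each had a library without an unconverted read. The sites shown for their depth, besides Fau, were the following. Psmb3, a proteasome subunit, had 6 of 498 reads (95% Wilson interval 0.553% to 2.60%), and Ilf2 2 of 489 (0.112% to 1.48%). Atp5b, the catalytic subunit of mitochondrial ATP synthase, had 0 of 328 reads, which allows a share of up to 0.915%. At 11 of the 39 sites no unconverted read was seen.

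None of the 39 CTCCA sites was called, a count that allows a share of up to 7.69% of such sites; with 0.0473% of all testable cytosines called, 39 sites are too few to set them apart. The highest of these sites, at 5.73%, lay below the level that a call required. The beta-binomial background, the background of the own transcript and the highest of the 3 p-values kept that level, so each could only give 0. At an unadjusted combined p below 0.05 there was 1, the site in Fau, against 13 of 609 other placed members. Among the other sequences, CTCCG stood at 1.53% ± 0.124 with 1 called of 94 and CGCCG at 1.29% ± 0.0304 with 2 called of 227 (SD, n = 3). CACCT had the highest mean share, 1.63% ± 0.0365 from 15 sites, and CACCG the lowest, 0.835% ± 0.339 from 48. The order of the 9 sequences is a description, since the sparser ones rest on few sites.

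A cytosine was called where its adjusted p was below 0.05, its mean share reached 10%, and all 3 libraries exceeded their own background. This held for 16 members in 16 genes, or 0.0254% of the members (exact 95% interval 0.0145% to 0.0413%), against 0.0481% of the remaining cytosines and 0.0473% of all testable ones. The members' rate, 25.4 per 100000, was the lowest of the 16 patterns. The pattern with cytosines at +3 and +4 only was close, at 26.9 per 100000 from 19 called. The order of such close rates rests on few calls. An adjusted p below 0.05 at any level was found at 243 members (0.386%), against 0.504% of the rest and 0.499% of all; 221 of the 243 had a mean share below 10%, and 6 reached 10% with a library that was not above the background. The median share of the 243 was 4.31% at a median coverage of 238 reads. Under other call rules the members' rate and that of the rest were 0.026% and 0.0496% with at least 20 reads in each library, 0.00318% and 0.00539% at a mean share of 20%, 0.00318% and 0.00679% with the highest of the 3 p-values, 0.0254% and 0.0456% with the background of the cytosine's own transcript, and 0.0191% and 0.0351% with a beta-binomial background. The 20% level and the highest p-value called only 2 members each, too few to order the members and the rest.

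**Figure D4:**
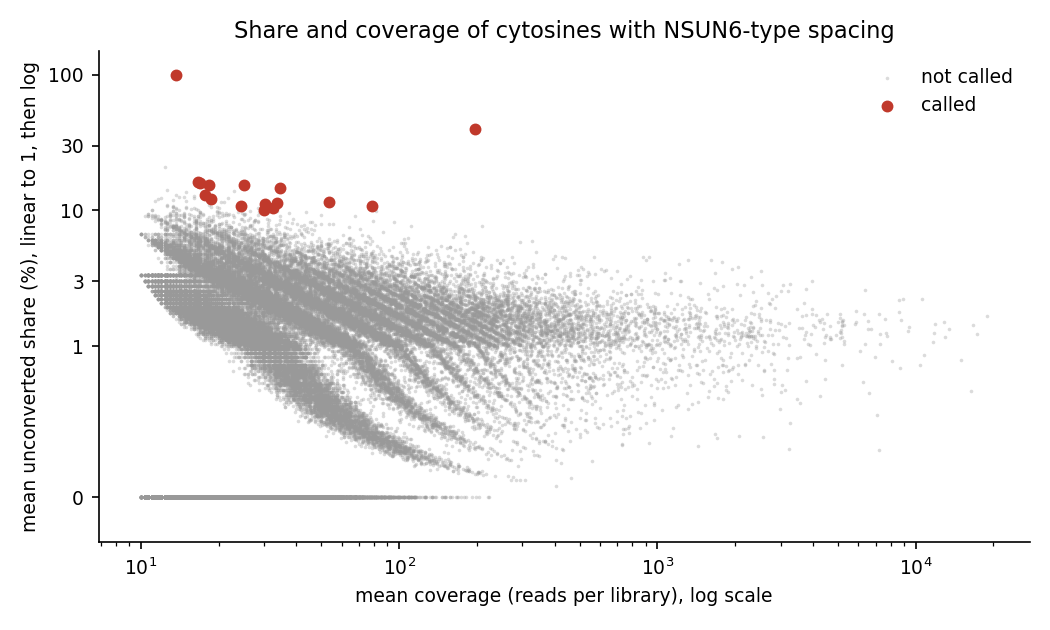
Mean unconverted share (percent, linear to 1 and log above) against mean coverage (reads per library, log scale) of the 62979 cytosines with NSUN6-type spacing; the 16 called ones are red. All but 1 of the called cytosines have a mean coverage below 100 reads, and the exception, in Brip1, lies at 39.5% and 197 reads.

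The 2 members at 20% or above that were called were in Rplp2 and Brip1. Rplp2 (NM_026020.6) encodes an acidic protein of the ribosomal stalk. Its cytosine at position 19 was unconverted in 16 of 16, 13 of 13 and 12 of 12 reads. Its letters, CGCCG, are not those of the NSUN6 motif. On the same stretch, the +2 cytosine was unconverted in 0 of 41 reads and the +3 cytosine in 2 of 41. Coverage was 41 reads at the site, a median of 977 at 50 to 100 nt downstream and up to 20179 elsewhere in the transcript. Ribosomal protein genes have near-identical copies, and the origin of these few reads was not tested.

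Brip1 (NM_178309.2) encodes a DNA helicase of the Fanconi anaemia pathway. At position 4228 it was unconverted in 49 of 139, 97 of 230 and 91 of 221 reads, a mean of 39.5% ± 3.74 (SD, n = 3). The +2 cytosine, 4230, was unconverted in 8 of 367 reads, while the +3 cytosine, 4231, was unconverted in 282 of 359. The mean share of the +3 cytosine over the 3 libraries was 77.8%. The +3 cytosine was thus the higher, on the same stretch, and it is the only +3 cytosine called beside a called member. The median coverage at 50 to 100 nt upstream was 8 reads, against 590 at the site, and no cytosine was listed at that distance downstream. The part of this narrow peak of coverage in the shares was not tested.

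The other 14 called members had mean shares of 10.1% to 16.3%. Arhgap23 had 3 of 15, 3 of 17 and 2 of 18 unconverted reads at position 3921 (16.3% ± 4.61). Srcap, the ATPase of a chromatin remodeller, had 2 of 12, 3 of 19 and 3 of 20 at position 10396 (15.8% ± 0.834). Each library was above the background in both, but from at most 3 unconverted reads. Uqcr10, a subunit of respiratory complex III, had 2 of 22, 4 of 25 and 6 of 28 at position 46 (15.5% ± 6.18), where the letters were CGCCG. Ube2s, a ubiquitin-conjugating enzyme of the anaphase-promoting complex, had 4 of 20, 2 of 11 and 2 of 24 at position 943 (15.5% ± 6.28). The replicates of Uqcr10 and Ube2s spread over more than 10 percentage points.

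Pabpn1 and Tbc1d13 had the most reads of the 14. Pabpn1, the nuclear poly(A)-binding protein, was unconverted in 6 of 82, 11 of 94 and 8 of 59 reads at position 249, a mean of 10.9% ± 3.21 (SD, n = 3; adjusted p = 4.27e-10, combined exact binomial tests). Tbc1d13, a GTPase-activating protein of Rab, had 7 of 48, 6 of 52 and 5 of 60 at position 1406 (11.5% ± 3.13). In both genes all 3 libraries lay at 7% or above. Id2, an inhibitor of basic helix-loop-helix factors, followed in depth, with 6 of 27, 2 of 30 and 7 of 47 at position 384 (14.6% ± 7.78). In Id2 the second library was the low one.

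Ppp1r14b, an inhibitor of protein phosphatase 1, had 3 of 23, 4 of 35 and 4 of 43 at position 29 (11.3% ± 1.88), where the letters were CTCCG. It is the only called member besides Brip1 with another called cytosine within 10 nt, and it had 2. The highest share within 10 nt of it, 15.0% at position 22, was above its own. Scrib, a polarity scaffold, had 4 of 31, 3 of 33 and 3 of 33 at position 5312 (10.4% ± 2.20). A cytosine at position 5321 of Scrib had a higher mean share, 20.0%, and was not called. Slc25a37, a mitochondrial iron importer, had 4 of 27, 2 of 24 and 2 of 22 at position 252 (10.7% ± 3.54). Each of these 3 sites was above the background in all libraries from 2 to 4 unconverted reads.

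The remaining called members fell below 10% in at least 1 library, as did most of the called members named above. Klhdc4 had 4 of 28, 2 of 31 and 4 of 32 unconverted reads at position 1067. Srpk2, a kinase of SR splicing factors, had 2 of 17, 4 of 21 and 1 of 18 at position 932. Sox13, a transcription factor, had 2 of 32, 5 of 29 and 2 of 29 at position 3106. Ubap1l had 2 of 20, 1 of 15 and 4 of 18 at position 641. Of the 16 called members, 11 passed an unadjusted 0.05 in every library taken alone (one-sided exact binomial test). All 16 were at 5% or above in every library.

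Calls at the members mostly did not extend to the cytosines at +2 and +3, though a neighbour could lie above the background without a call. None of the 16 had a called cytosine at +2, and 1, Brip1, had one at +3. The +2 cytosine had reads enough for the test beside 14 of the 16, and the +3 cytosine likewise beside 14. The +2 cytosines had mean shares of up to 5.79% (Arhgap23) and the +3 cytosines, Brip1 aside, of up to 7.55% (Scrib). Leaving out each library in turn kept the call in all 3 runs at 3 of the 16 sites, in Rplp2, Brip1 and Id2. Scrib and Slc25a37 lost it in every run, and the other 11 in 1 or 2 runs.

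**Figure D5:**
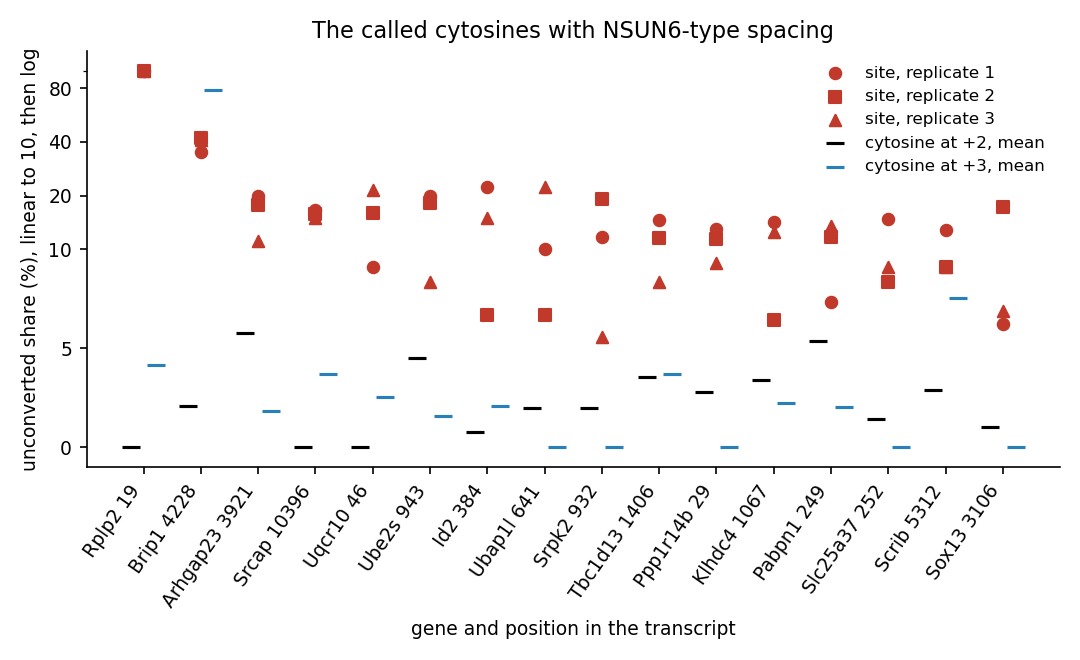
Unconverted share in percent (linear to 10, log above) of the 16 called cytosines with NSUN6-type spacing in each replicate (red symbols), with the mean share of the cytosines at +2 (black bars) and +3 (blue bars). Rplp2 and Brip1 stand apart, and only in Brip1 does the +3 cytosine, at 77.8%, lie above the site.

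The 20 members with the highest mean share reached down to 12.3%, and 12 of them were not called. They were thinly read, with a median mean coverage of 16.3 reads over the 20, and 8 had a library without any unconverted read. Sos1, an activator of Ras, had 3 of 14, 0 of 11 and 5 of 12 at position 216, a mean of 21.0% ± 20.8 (SD, n = 3). Psmg4, a proteasome assembly chaperone, had 3 of 10, 2 of 16 and 0 of 12. Rest, the repressor of neuronal genes, had 4 of 28, 5 of 22 and 0 of 15, and Orc5, of the origin recognition complex, 4 of 15, 3 of 24 and 0 of 16. Each of these 4 had 1 library at 0, and in Psmg4 the adjusted p was also 0.111 (combined exact binomial tests).

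A second site in Arhgap23, at position 3903, had 5 of 18, 0 of 23 and 4 of 28, and its +2 cytosine, at 13.0%, was not called either. Its +3 cytosine stood at 8.99%, and 1 cytosine within 10 nt of the site was called. Thoc3, of the THO complex that couples transcription to export, had 0 of 10, 3 of 16 and 3 of 16, Rictor, of the mTORC2 kinase complex, 0 of 15, 3 of 11 and 1 of 10, and 1700067K01Rik 2 of 12, 4 of 18 and 0 of 11. Rint1, Dock11, Cdk18 and Nelfb, a subunit of the negative elongation factor, had an unconverted read in each library, with means of 12.3% to 13.7% and adjusted p from 0.0780 to 0.231 (combined exact binomial tests). All 4 had a mean coverage of 16 reads or fewer.

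Deeply read members gave tighter limits. At 7883 members of 2238 named genes with at least 100 reads in each library, the median share was 1.26%, 19 were at 5% or above, and 1, in Brip1, was at 10% or above. An adjusted p below 0.05 was found at 2.17% of them, against 2.63% of 200559 remaining cytosines of that depth. After Brip1 the highest was C1qbp, a mitochondrial matrix protein, with 11 of 126, 10 of 104 and 5 of 104 at position 131 (7.72% ± 2.56). H3f3a, which encodes the replacement histone H3.3, had 19 of 256, 15 of 207 and 14 of 167 at position 79 (7.68% ± 0.612). Its 3 libraries agreed to within 2 percentage points, and its adjusted p was 4.89e-15 (combined exact binomial tests). Pcgf6, a Polycomb subunit, stood at 6.75% ± 1.22 (position 1505) and Cct4, a chaperonin subunit, at 6.41% ± 1.59 (position 476). C1qbp, H3f3a, Pcgf6, Cct4, Rnf187 and Lefty1 were named after their values were seen.

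In Rnf187, a ubiquitin ligase, 2 members 3 nt apart were both high: position 336 had 13 of 199, 11 of 168 and 11 of 174 (6.47% ± 0.126), and position 333 had 12 of 200, 15 of 176 and 5 of 175 (5.79% ± 2.84). Pairs of this kind share reads; 8510 members lay 3 nt from another. Lefty1, a Nodal antagonist, had 22 of 359, 15 of 259 and 15 of 264 at position 1028 (5.87% ± 0.233). None of these sites reached the level that a call required.

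The 5 most deeply read members had mean shares of 0.701% to 1.67%, none near the level of a call. H2az1, a histone variant, had 290 of 17513, 356 of 20816 and 306 of 18634 at position 357, a mean of 1.67% ± 0.0360 (SD, n = 3), above the background with an adjusted p of 0.0162 (combined exact binomial tests). The ribosomal protein gene Rps12 held 2 of the 5, at positions 85 and 88, with 1.23% ± 0.0191 and 1.44% ± 0.143. The chaperone gene Hsp90ab1 had 0.908% ± 0.0300 at position 1241, and the ribosomal protein gene Rps6 had 0.701% ± 0.0112 at position 261, while the +2 cytosine of the latter had 680 of 47045 reads, or 1.45%. These 5 values differed by more than the spread between libraries.

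The genes with the most members had long transcripts, with 1875 to 3631 testable cytosines each. Hspg2, the basement membrane proteoglycan perlecan, held 148, Srrm2, a splicing factor, 138, Ubr4, a ubiquitin ligase, 137, Dync1h1, the heavy chain of cytoplasmic dynein, 135, and Fat1, a large cadherin, 110. None of these members was called by the binomial test. Their highest mean share, 8.46%, lay below the level that a call required. The beta-binomial background, the transcript's own background and the highest of the 3 p-values kept that level, so each could only give 0. Members under an unadjusted combined p of 0.05 numbered 2 in Hspg2, 4 in Srrm2, 2 in Dync1h1 and 0 in Ubr4 and Fat1. Together these are 1.198% of 668 members, against 2.78% of all members, and at 0.0473% called overall a count of 0 does not set these genes apart. The members' share was 1.46% ± 0.0356 in Hspg2 and 1.25% ± 0.108 in Fat1 (SD, n = 3), against 1.46% ± 0.0663 and 1.35% ± 0.0393 at their other cytosines. The highest member of the 5 genes was at position 4067 of Hspg2, at 8.46%.

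Lists of genes were described by their counts, beside 0.0473% of all testable cytosines called, and 2.78% of all members and 3.34% of the remaining cytosines at an unadjusted combined p below 0.05. At that rate of calls, 0 or 1 called in a list of this size says nothing particular to it. Deeper sites reach a low p more easily, and no member without an unconverted read can: such members made up 29.6% of all members and 5.94% to 17.7% of each list's. The part of depth in the lists' percentages at a low p was not tested. RNA cytosine methyltransferases and m5C readers had 80 members in 7 genes, of which 0 were called and 8 (10%) had an unadjusted combined p below 0.05. The beta-binomial background kept the 10% level, which no member of this list reached, so it could call none. Of the list's 1975 remaining cytosines 6 were called. Alyref, which exports mRNA and reads m5C, came nearest, with 12 of 84, 4 of 88 and 8 of 73 at position 159, a mean of 9.93% ± 4.95 (SD, n = 3), and its +3 cytosine stood at 9.67%. In Alyref the adjusted p was 2.10e-09 (combined exact binomial tests), so the level minimum alone kept it out. The next sites of the list were far lower, with 3 unconverted of 58 reads at position 2040 of Nop2, a ribosomal RNA methyltransferase, and 10 of 257 at position 406 of Nsun5, another.

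Pluripotency genes had 231 members in 13 genes and 0 called, with 19 (8.23%) at an unadjusted combined p below 0.05. Of the list's 5258 remaining cytosines 3 were called. No member reached the 10% level, so the beta-binomial background could call none. The highest was at position 1106 of Klf4, a reprogramming factor, with 2 of 42, 1 of 23 and 6 of 45 (7.48% ± 5.07), followed by position 265 of Dppa4 (7.35% ± 7.17) and position 29 of Klf4 (7.01% ± 5.13). In Dppa4 the spread between libraries was nearly as large as the mean. Translation factors had 575 members in 52 genes and 0 called, with 39 (6.78%) at an unadjusted combined p below 0.05. Of the list's 14537 remaining cytosines 6 were called. Translation factors also had no member at the 10% level, so the beta-binomial background could call none. Their highest sites were position 511 of Eif5b, which joins the ribosomal subunits, at 9.70% ± 4.73, and positions 2406 and 508 of Eif4b, an activator of the initiation helicase, at 7.34% ± 3.09 and 7.22% ± 6.74 (SD, n = 3).

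Cytosolic ribosomal protein genes had 522 members in 81 genes, and 1, in Rplp2, was called by both tests; 57 (10.9%) had an unadjusted combined p below 0.05. Of the list's 11814 remaining cytosines 16 were called. Their next highest sites were position 4682 of Rps15a at 8.33% ± 14.4, all from 3 of 12 reads of replicate 3, and position 65 of Rps23 at 6.31% ± 3.67 (SD, n = 3). Over reads, the members' share was 1.64% ± 0.160 for methyltransferases and readers, against 1.64% ± 0.0890 at those genes' other cytosines. It was 1.47% ± 0.110 against 1.39% ± 0.0591 for pluripotency genes, 1.42% ± 0.0747 against 1.44% ± 0.0644 for translation factors, and 1.34% ± 0.0467 against 1.46% ± 0.0688 for ribosomal protein genes (SD, n = 3). The median of the members' mean shares, which rises with depth, was 1.38%, 1.25%, 1.204% and 1.23% in the same order, against 1.19% over all members.

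Agreement between libraries was low for single members, as for other cytosines. Over 62979 members, pairs of libraries had a Pearson r of 0.0946 to 0.108, and Spearman's rank correlation ranged from 0.138 to 0.144. At a coverage of at least 100 reads in each library, r was 0.422 to 0.425 and the rank correlation 0.243 to 0.272 across 7883 members. Across 200559 remaining cytosines of that depth, r was 0.385 to 0.394 and the rank correlation 0.281 to 0.287. At a minimum of 50 reads, r was 0.245 to 0.251 for the members and 0.270 to 0.276 for the remaining cytosines. Without the called members, r at that depth was 0.199 to 0.212 for the members. The part of the Brip1 site in r at 100 reads was not tested. These are correlations across cytosines, which share reads and library and are not independent replicates.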

How the data were processed

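Bisulfite-converted polyadenylated RNA of 3 samples of 1 group was analysed. The tools named in the submitters' processing notes are BSMAP and build mm9, with versions, counting and annotation not given in the sources used here. In the authors' tables a row is 1 cytosine of an mRNA, with its coverage as a deposited raw count of reads and the unconverted part of them as a deposited fraction. Fraction times coverage was whole (within 1e-06) at 100% of cytosines and was taken as the count of unconverted reads. No listed coverage is below 3.

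Each library's unconverted reads were set against its library-wide share (1.53%, 1.45% and 1.41%) in an exact binomial test, one-sided. Fisher's method combined the 3 libraries' p-values, with Benjamini-Hochberg adjustment across the 1639820 cytosines with at least 10 reads in each library. These p-values treat reads as independent. Groups of cytosines were compared by an exact sign-flip permutation test over the 3 libraries. Gene symbols (14932 of 15021 transcripts) and sequences are RefSeq's, build GRCm38.p6. A transcript was placed on the promoter table with at least 6 matching cytosines at the table's gene start, or 10 at another. Named were the 20 highest members, every called one, the 5 deepest, the 5 genes with the most members and up to 3 members per gene list; other names are marked in the text. The members, lists and tests were chosen with earlier results of these data known. Python 3.11.15, pandas 2.3.3, numpy 2.4.6 and scipy 1.17.1 were used, and the calling rule was tested on simulated data. Alternatives were other coverage and level minimums, backgrounds, p-value combinations, strata and subsets of genes or libraries.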

Additional observations from a re-analysis of the deposited data

How the results depend on the processing

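The lower share of the members kept its direction in every library under all alternatives run; it was moved beyond the spread between libraries by averaging shares per cytosine (-0.0628 percentage points) and by strata of local cytosine number (-0.0384). The difference from the +2 cytosine turned to -0.00621 at a coverage minimum of 20 reads, to -0.00125 without called cytosines, and ranged from -0.00358 to 0.00751 over runs leaving out 1 library, so it has no stable sign; the difference from +3 kept its sign throughout. The CTCCA difference was 0.000448 without genes with several listed transcripts and -0.0498 without the Fau site. It was -0.0313 with transcripts placed at the table's gene start only. With the Fau site kept, it was 0.309 without called members and 0.220 at a coverage minimum of 20 reads. Runs leaving out 1 library, also with that site, gave 0.118 to 0.338. Without both the Fau site and the called members it was 0.00298 ± 0.340 (SD, n = 3). The count of called members was 10 at a coverage minimum of 20 reads (0.0260%), 2 at a level minimum of 20% (0.00318%) and 2 with the highest of the 3 p-values (0.00318%); those 2 settings kept Rplp2 and Brip1. It was 12 with a beta-binomial background, 16 with the background of the own transcript, and 13 to 20 over runs leaving out 1 library. At the median depth, 0 unconverted reads in 1 library allow a share of about 10%. Differences between kinds of cytosine were taken within each library, and there is 1 group of samples.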
